A study of Mus musculus with 12 samples.

Results

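The RNA that an antibody against Ythdf2 brought down from newborn mouse retina was compared with the input RNA of the same tissue. The comparison rests on 4 of the 12 libraries of the series: 2 anti-Ythdf2 immunoprecipitates (IPs) and 2 inputs, chosen by their labels. The other retina libraries, 2 anti-Ythdf1 IPs, entered the same fit and serve as a second antibody, so that 6 retina libraries were analysed. Every retina group is wild-type C57BL/6 tissue taken at postnatal day 0, with no treatment. The groups differ only in the antibody (anti-Ythdf2 or anti-Ythdf1) or in its absence (input). Per the labels, RNA was immunoprecipitated from dissociated tissue with the EZ-Magna RIP kit, and stranded TruSeq libraries were built from 100 ng of RNA. No control IgG library was analysed here. The input is therefore the background, and transcripts that stick to any antibody or bead cannot be told apart from transcripts bound by Ythdf2. The labels do not say whether replicates came from separate animals, so p-values measure only the spread between these samples.

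Ythdf2 is a cytoplasmic protein whose YTH domain binds N6-methyladenosine (m6A), the commonest internal modification of mRNA. It recruits the Ccr4-Not deadenylase and shortens the life of the mRNAs it binds, whereas its relative Ythdf1 is best known for promoting translation. The methyl group is set by the Mettl3-Mettl14 complex within short motifs, of which GGACT is a common form, and it is densest around stop codons and in long exons. At birth the mouse retina holds dividing progenitors beside young ganglion, amacrine and photoreceptor cells, and ganglion cells are then growing dendrites and axons.

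Because m6A is known to lie near stop codons, the GGACT closest to the stop codon is shown for 6 transcripts that were higher in the Ythdf2 IP than in input, 3 from the largest rises and 2 from the most abundant, beside Hspa12a, a heat shock family gene linked to Ythdf2 in retina. The motif is in capitals, with 12 bases on either side, written 5′ to 3′ on the strand of the transcript.
Zfp46: ccgggtaagaaaGGACTcgtttggaggcc
Agpat4: acggaaacaaacGGACTgatgtgggaaag
Cacfd1: ggggtgctgtatGGACTgtctgccctggg
Srgap3: atgtgacctgcaGGACTggtgacactgcc
Fam168b: tgcctccaaccaGGACTttcttcttactg
Hspa12a: accagccccctgGGACTcatctgcatttg
These windows were read from the GENCODE M21 transcripts on GRCm38, at chr4:136291227-136291255 (plus strand) for Zfp46, chr17:12219061-12219089 (plus) for Agpat4, chr2:27018446-27018474 (plus) for Cacfd1, chr6:112722765-112722793 (minus) for Srgap3, chr1:34817315-34817343 (minus) for Fam168b and chr19:58799312-58799340 (minus) for Hspa12a. The motif lay in the 3′ UTR in Srgap3, Zfp46, Hspa12a and Fam168b, at 9, 26, 35 and 93 bases from the stop codon. It began in the coding sequence in Agpat4 and Cacfd1, at -4 and -111 bases, where negative values start before the stop codon. In Agpat4 the last base of the motif is the first base of the stop codon. These 6 windows are close to the stop codon, and other enriched transcripts differ. Their closest motif lay at -341 in E2f1, -564 in Slc6a2, -904 in Gsk3b and -1006 in Nr2f6, but at -61 in Trim32. The transcripts of Tedc1 and Ccdc85c held none. The 6 therefore do not show where the motif lies in enriched transcripts as a set. GGACT was searched on the transcript strand alone, and 92.1% of all 12396 protein-coding transcripts examined hold at least 1, so a match marks no methylated site.

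Each Ythdf2 IP held about as much of its depth in rRNA as the Ythdf1 IPs did, and more than the inputs. Reads at rRNA loci took 86.6% and 89.3% of counts in the Ythdf2 IPs, 88.8% and 88.9% in the Ythdf1 IPs, against 73.1% and 72.0% in the inputs. After these were left out, the genes tested held 2606717 and 2644514 counts in the Ythdf2 IPs, 4528115 and 3759457 in the Ythdf1 IPs, against 10618209 and 10115117 in the inputs. The rank correlation between replicates across 12427 protein-coding genes was 0.965 for the Ythdf2 IPs, 0.974 for the Ythdf1 IPs and 0.872 for the inputs. The inputs therefore differ most, and across 12396 genes the log2 difference of input replicate 2 minus replicate 1 had a Spearman correlation of -0.578 with GC content and 0.322 with transcript length. Levels below are CPM, the counts scaled to a common library size by trimmed mean of M values (TMM), given for replicate 1 and then replicate 2. TMM sets most genes equal between IP and input, so a rise is a rise relative to the other transcripts.

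Of 14335 genes tested, 1073 (7.49%) were higher and 1707 (11.9%) lower in the Ythdf2 IP than in input at an adjusted p under 0.05 (edgeR quasi-likelihood test). These are called enriched and depleted here. Of them, 960 and 1668 changed at least 2-fold. The median log2 fold change was 1.39 over the enriched genes, -2.18 over the depleted genes and -0.06 over all genes. In each of the 1073 enriched genes both IPs lay above both inputs, and in each of the 1707 depleted genes both lay below, as they did in 28.8% and 31.4% of all genes tested. The split depends on scaling: with plain library totals in place of TMM, which moved the median of all genes to 1.45, 7966 genes were enriched and 532 depleted. Most calls rest on having both Ythdf2 IPs. Without replicate 1 or replicate 2 of the Ythdf2 IP, 122 and 224 of the 1073 enriched genes and 521 and 575 of the 1707 depleted genes were still called. Without Ythdf1 IP replicate 1 or 2, which serve only to estimate the spread, 467 and 480 enriched genes kept their call. Without input replicate 1 or 2 the number enriched was 2515 and 2718, and the number depleted 2386 and 2663.

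**Figure D1:**
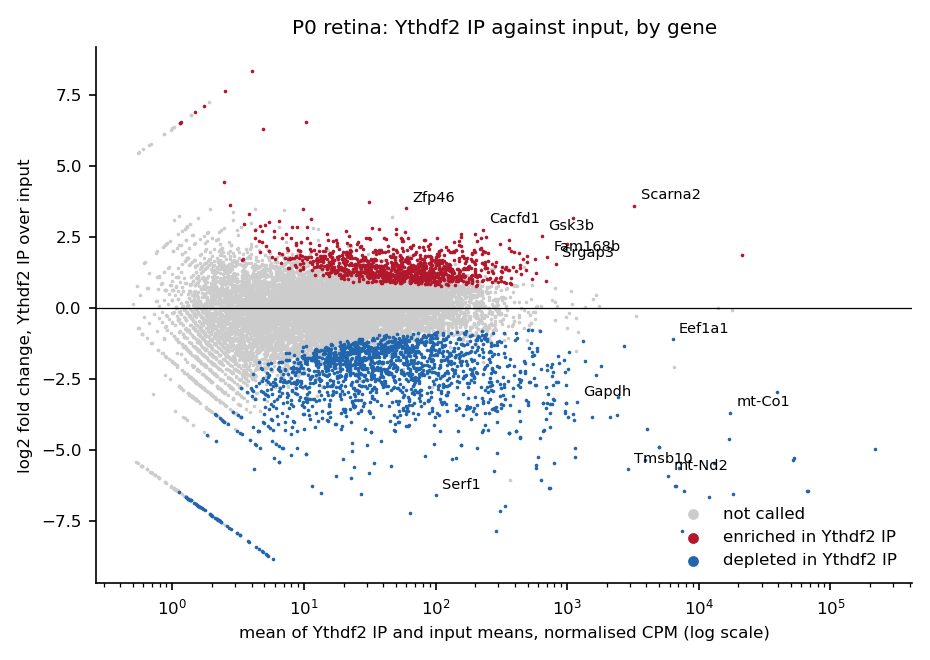
Log2 fold change, Ythdf2 IP over input, against mean level in IPs and inputs for 14292 of the 14335 genes tested (CPM, horizontal axis logarithmic). Enriched genes lie above and depleted genes below the horizontal line of no change, and the depleted genes reach farther from it than the enriched ones.

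The largest rises among the protein-coding genes named here came mostly in transcripts of low input level. Zfp46, a C2H2 zinc finger gene (chr4), had 119.8 and 98.9 CPM in the Ythdf2 IPs, against 9.15 and 10.1 CPM in the inputs. The log2 fold change was 3.50 ± 0.397 (SE, n = 2 each; edgeR adjusted p = 0.000651). The groups did not overlap, and the Ythdf1 IPs lay between them at 23.8 and 11.5 CPM. Slc6a2, the noradrenaline transporter, had 17.99 and 18.05 CPM in the Ythdf2 IPs, against 2.19 and 0.969 CPM in the inputs, a log2 fold change of 3.49 on few input reads. Agpat4, an acyltransferase of phospholipid synthesis, had 58.5 and 70.3 CPM in the Ythdf2 IPs, against 6.56 and 12.2 CPM in the inputs, a log2 fold change of 2.77. Cacfd1, a gene with the flower domain of a fly calcium channel, was higher still in level, at 391 and 407 CPM in the Ythdf2 IPs, against 67.4 and 51.2 CPM in the inputs (log2 fold change 2.75 ± 0.266, edgeR adjusted p = 0.000305). The calls of Zfp46, Slc6a2, Agpat4 and Cacfd1 held in each of the 6 fits that left out 1 retina library, as did those of Zfp954 (2.83), a zinc finger gene, and Tedc1 (2.79), a centriole protein gene. Nr2f6, an orphan nuclear receptor gene (log2 fold change 3.05), and Emilin1, an extracellular matrix gene (3.01), were called in the full fit and not without Ythdf2 IP replicate 1, where the adjusted p no longer passed.

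Among the abundant protein-coding transcripts named here the rises were smaller. Gsk3b, the kinase that marks beta-catenin for destruction (chr16), had 1087 and 1117 CPM in the Ythdf2 IPs, against 110.2 and 272 CPM in the inputs. Its log2 fold change was 2.53 ± 0.402 (edgeR adjusted p = 0.00351), and the 2 inputs differed more than the 2 IPs. The Ythdf1 IPs, at 152 and 143 CPM, lay within the range of the inputs. Srgap3, a Slit-Robo GTPase-activating protein, had 1282 and 1177 CPM in the Ythdf2 IPs, against 394 and 442 CPM in the inputs (log2 fold change 1.56). Fam168b, which encodes an inhibitor of neurite outgrowth, had 1010.5 and 1169.9 CPM in the Ythdf2 IPs, against 315 and 322 CPM in the inputs (1.77). All 3 calls held without any 1 library. E2f1, a transcription factor of S-phase entry, had 916 and 828 CPM in the Ythdf2 IPs, against 367 and 168 CPM in the inputs (1.71), and lost its call without either Ythdf2 IP.

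**Figure D2:**
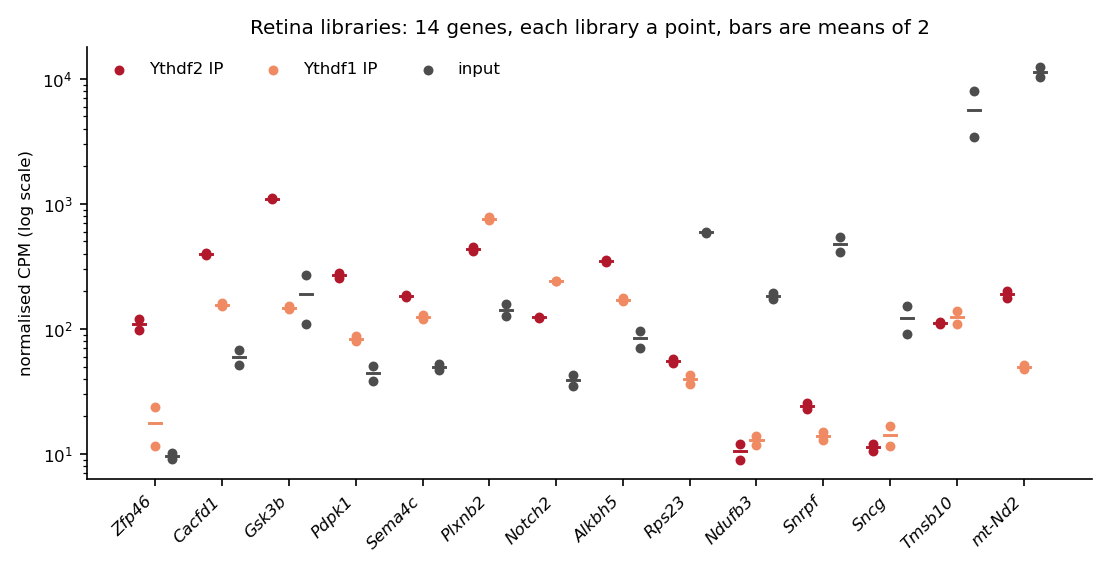
Level of 14 transcripts in each retina library (CPM, logarithmic axis; 2 points per group, Ythdf2 IP left, then Ythdf1 IP, then input). Zfp46 to Alkbh5 lie higher in both Ythdf2 IPs than in both inputs, and Rps23 to mt-Nd2 lie lower.

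In 7 enriched genes both inputs were at 0, so only a lower bound of the fold can be given, against a floor of 3 counts per library. Such genes passed the filter of at least 10 counts in at least 2 libraries only through the IPs. With both inputs at 0 their direction was fixed in advance, and it gives no support for binding. F11r, a tight-junction gene, was at least 13.7-fold higher in the Ythdf2 IPs, Syne3 at least 8.53-fold, Tnfaip3, an inhibitor of NF-kappaB signalling, at least 5.93-fold and Atp2b3, a calcium pump gene, at least 5.04-fold. Tmem102, Kcnk5 and Bdnf were at least 3.95-fold, 3.91-fold and 3.88-fold higher. Bdnf, a neurotrophin that supports dendrite growth, had 2.91 and 1.67 CPM in the Ythdf2 IPs, from 11 and 6 counts, so its call rests on few reads. It was higher in the Ythdf1 IPs, at 6.59 and 4.20 CPM. Tnfaip3, Atp2b3 and Kcnk5 were also higher there, whereas F11r and Syne3 were lower and Tmem102 overlapped.

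Transcripts of the m6A machinery were mostly not called. Of 14 m6A readers tested none was enriched and 2 were depleted, with a list median log2 fold change of 0.12 against -0.06 for all genes. Over all genes tested 7.49% were enriched and 11.9% depleted. The readers depended on the libraries: without input replicate 1 there were 3 enriched and 5 depleted (median -0.38), and without input replicate 2 there were 4 and 4 (median 0.44). Without either Ythdf2 IP none was depleted (median 0.15 without replicate 1, 0.03 without replicate 2), and without either Ythdf1 IP 1 was. Hnrnpa2b1 had 306 and 255 CPM in the Ythdf2 IPs, against 704 and 1557 CPM in the inputs (-2.01), and Hnrnpc fell by 1.11 on the log2 scale, but was at 0.41 under library totals. Both encode nuclear RNA-binding proteins. Ythdf2's own mRNA had 56.1 and 47.5 CPM in its IPs, against 24.7 and 61.5 CPM in the inputs, so that its IP values lie inside the input range (log2 fold change 0.27, adjusted p = 0.688). The values for Ythdf1 and Ythdf3 were 0.57 (adjusted p = 0.158) and 0.25 (0.778). Among 13 writers and erasers 2 were enriched and 1 depleted, against 4 and 3 without input replicate 1 and 5 and 0 without input replicate 2. Alkbh5, a demethylase that removes m6A, had 359 and 341 CPM in the Ythdf2 IPs, against 97.1 and 71.0 CPM in the inputs (2.06, adjusted p = 0.00125), and kept its call without any 1 library. Rbm15b, a cofactor of the methyltransferase, was at 1.01 and was not called without either Ythdf2 IP or either Ythdf1 IP. Zc3h13, another cofactor, fell by 2.36 on the log2 scale, and its inputs were far apart, at 20.9 and 92.7 CPM. Its call held in 1 of the 6 fits that left out a library, the one without input replicate 1, and the value ran from -3.07 to -0.92 over them.

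Transcripts of the decay machinery that Ythdf2 works through were called in both directions, at shares near those of all genes. Of 51 genes for deadenylation and decay 6 were enriched and 5 depleted, against 7.49% and 11.9% of all genes tested. The median was 0.04, and 0.22 without Ythdf2 IP replicate 2, 0.14 without input replicate 1 and 0.41 without input replicate 2. The enriched ones were Dcp2, the decapping enzyme (2.22), Skiv2l, an exosome helicase (1.30), Tnrc6c, a partner of Argonaute (1.24), Cnot1, the scaffold of the Ccr4-Not complex to which Ythdf2 binds (1.14), Ago2 (0.97) and Edc4 (0.94). Depleted were the nonsense-mediated decay genes Upf3b (-3.04) and Upf3a (-2.22), the AU-rich element binding gene Zfp36l1 (-2.55), Cnot4 (-1.64) and Patl1 (-1.26, but 0.26 under library totals). Zfp36l1 had 206 and 55.5 CPM in the Ythdf2 IPs, against 716 and 821 CPM in the inputs, so its IPs differed widely, and it was not called without either input. None of the 6 enriched decay genes was called without Ythdf2 IP replicate 1 or without replicate 2, and 2 and 1 decay genes were then depleted. Without either Ythdf1 IP 2 decay genes were enriched, and without input replicate 1 or 2 there were 17 and 18 enriched and 9 and 6 depleted.

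The plexins had the highest share of enriched members among the lists drawn in the plot of gene lists. Of the 8 plexins, which are the axon guidance receptors of semaphorins, 6 were enriched and none depleted, with a list median of 1.36. The summed level of the list was 1451 and 1402 CPM in the Ythdf2 IPs, 2295 and 2162 CPM in the Ythdf1 IPs, and 646 and 526 CPM in the inputs, so both antibodies lay above input. Plxnb2 had 449 and 419.6 CPM in the Ythdf2 IPs, against 157 and 127 CPM in the inputs (log2 fold change 1.61 ± 0.248, edgeR adjusted p = 0.00292). Plxna4 was at 1.72, Plxnc1 at 1.38, Plxna2 at 1.37, Plxnb1 at 1.35 and Plxna1 at 1.00. Plxna3 (0.91, adjusted p = 0.0809) and Plxnd1 (0.51, adjusted p = 0.271) were not called. Plxnb2 was the 1 plexin still enriched without either Ythdf2 IP. Plexin transcripts are long, with a median of 7975.5 bases against 3101 for all 12396 transcripts examined.

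Among 19 semaphorins and neuropilins, the ligands and co-receptors of plexins, 7 were enriched and none depleted. The median was 0.33, and it was 0.79 and 0.86 without Ythdf2 IP replicate 1 or 2 and 0.66 and 0.74 without input replicate 1 or 2. Sema4c had 180 and 185 CPM in the Ythdf2 IPs, against 52.5 and 47.3 CPM in the inputs (1.87, adjusted p = 0.00136). Nrp2, a co-receptor, had 43.6 and 39.4 CPM in the Ythdf2 IPs, against 9.55 and 7.76 CPM in the inputs (2.26). Both held without any 1 library. The others were Sema4f (2.84), Sema6d (1.91), Sema6c (1.36), Sema4b (1.26) and Sema3f (0.99). Counts without Ythdf2 IP replicate 1 or 2 were 4 and 2, and without Ythdf1 IP replicate 1 or 2 they were 4 and 4. Of 21 ephrins and Eph receptors 2 were enriched, the receptors Epha4 (1.96) and Ephb3 (1.87). That is near the 7.49% of all genes tested, as is the share in the Slit, Robo, netrin, Dcc and Unc5 group that follows. Ephb3 alone held without either Ythdf2 IP, and 7 and 9 members were enriched without input replicate 1 or 2. Of 15 genes of the Slit, Robo, netrin, Dcc and Unc5 group, other guidance cues and receptors, 1 was enriched (median 0.71), and 0 by edgeR without either Ythdf2 IP or either Ythdf1 IP, against 4 and 6 without input replicate 1 or 2. Of 62 protocadherins, cell-surface proteins of neuronal self-recognition that share exons within their clusters, 9 were enriched and none depleted (median 0.84). The protocadherin count was 1 without Ythdf2 IP replicate 1, 4 without replicate 2, 16 and 20 without input replicate 1 or 2, and 5 and 6 without Ythdf1 IP replicate 1 or 2. Reads of shared protocadherin exons may be divided among members by the counting, so single protocadherins are uncertain.

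**Figure D3:**
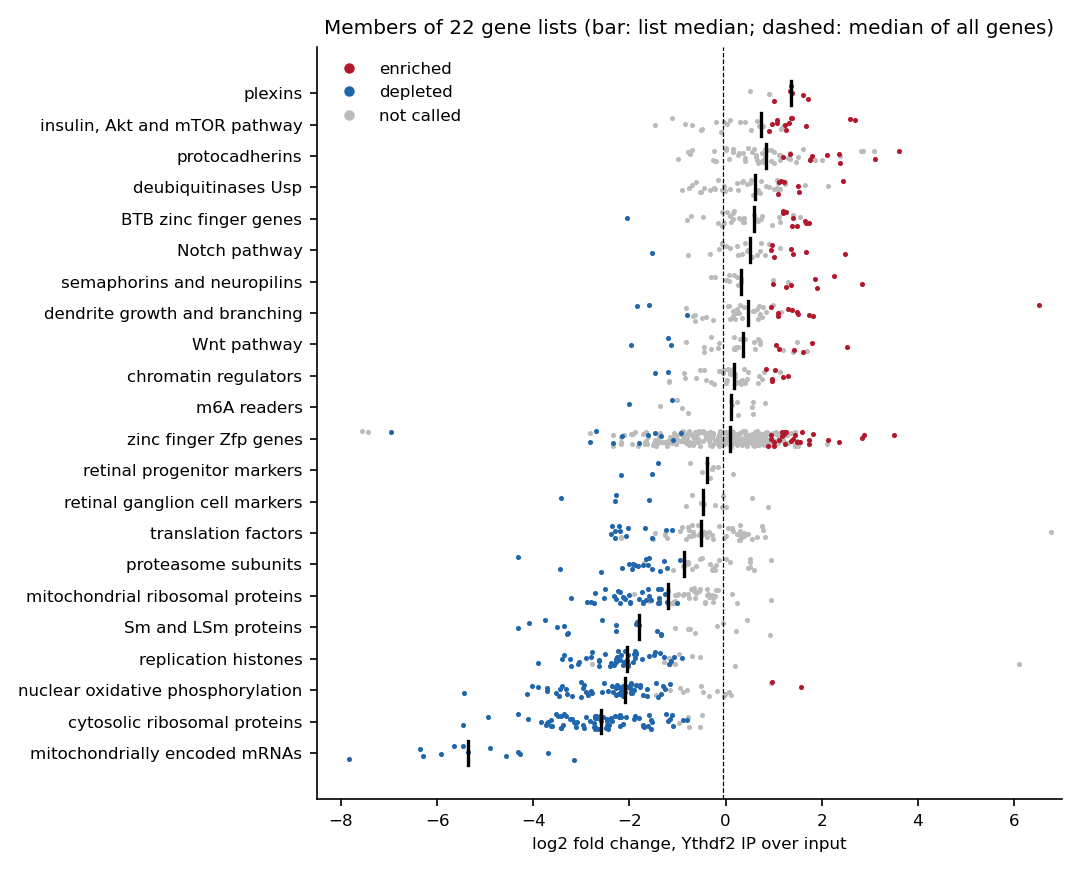
Log2 fold change, Ythdf2 IP over input, of each tested member of 22 gene lists (horizontal axis; points are genes, bars list medians, the dashed line the median of all genes). Plexins and the insulin list lie to the right, and ribosomal, respiratory and histone transcripts to the left.

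Signalling pathways of the progenitor contained enriched members with a few depleted ones. Of 28 Notch pathway genes 7 were enriched and 1 depleted (median 0.50). Notch2 had 125 and 122 CPM in the Ythdf2 IPs, against 43.0 and 34.7 CPM in the inputs (1.67), and Mib1, the ubiquitin ligase that activates Notch ligands, was at 2.49 with unequal IPs of 348 and 180 CPM. The receptor Notch1, the more abundant of the receptors, had 939 and 893 CPM in the Ythdf2 IPs, against 558 and 384 CPM in the inputs (0.96). Notch3 (1.35), the ligand Dll4 (1.41), the inhibitor Numbl (1.00) and the transcription factor Rbpj (0.96) were enriched as well. The pathway's target gene Hes1 fell to 53.2 and 42.2 CPM in the Ythdf2 IPs, against 169 and 106 CPM in the inputs (-1.53). It was not called without either Ythdf2 IP, and under library totals it was at 0.00051. Without either Ythdf2 IP, 2 Notch genes, Notch2 and Mib1, were called enriched, without Ythdf1 IP replicate 1 or 2 there were 3 and 3, and without input replicate 1 there were 14.

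Of 34 Wnt pathway genes 6 were enriched and 3 depleted, with a median of 0.35 (0.54 without input replicate 1). Beside Gsk3b, Ctnnb1, which encodes beta-catenin, had 766 and 736 CPM in the Ythdf2 IPs, against 256 and 234 CPM in the inputs (1.62, adjusted p = 0.00239). The co-receptors Lrp6 (1.41) and Lrp5 (1.12), the receptor Fzd5 (1.04) and the ligand Wnt5a (1.80) completed the enriched set. Depleted were Tcf7l1 (-1.97), Gsk3a (-1.20) and Dvl3 (-1.14, but 0.39 under library totals), so the 2 Gsk3 genes had opposite signs, except under library totals, where Gsk3a was at 0.33. Only Gsk3b and Ctnnb1 of the 6 were called without either Ythdf2 IP or without either Ythdf1 IP, whereas 11 and 12 genes were enriched without input replicate 1 or 2. No Wnt gene was depleted without either Ythdf2 IP, and 1 without either Ythdf1 IP.

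Of 32 genes of the insulin, Akt and mTOR pathway 12 were enriched and none depleted, with a median of 0.73. Pdpk1, the kinase that activates Akt, had 254 and 281 CPM in the Ythdf2 IPs, against 38.2 and 50.2 CPM in the inputs (log2 fold change 2.60 ± 0.269, edgeR adjusted p = 0.000437). It held without any 1 library, and its Ythdf1 IPs were lower, at 80.5 and 87.0 CPM. Sesn2, a leucine sensor upstream of mTOR, was at 2.69 on few reads, with 8.73 and 8.05 CPM in the Ythdf2 IPs, against 1.99 and 0.582 CPM in the inputs. The adaptor Irs1 (1.68), the kinase Mtor (1.38), its partner Rictor (1.27), the receptor Insr (1.24) and the inhibitors Tsc2 (1.08) and Tsc1 (0.91) were also enriched. The count fell to 1 and 3 without Ythdf2 IP replicate 1 or 2 and to 6 and 6 without Ythdf1 IP replicate 1 or 2. The list's transcripts are long, with a median of 6400.5 bases.

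Genes of dendrite growth and those tied to Ythdf2 in retina were next. Published work on Ythdf2 in the retina, as recalled here, names 5 genes as its targets, and since that work may rest on these libraries they give no independent evidence. Of the 5, 4 were enriched. Strn, a scaffold protein of dendrites, had 158 and 126 CPM in the Ythdf2 IPs, against 17.7 and 62.8 CPM in the inputs (1.81). Ubr4, a large ubiquitin ligase, had 415 and 418 CPM in the Ythdf2 IPs, against 177 and 121 CPM in the inputs (1.48). The Ythdf1 IPs held more Ubr4, at 690 and 655 CPM. Kalrn, an exchange factor for Rac in dendritic spines, had 83.1 and 83.9 CPM in the Ythdf2 IPs, against 37.4 and 49.8 CPM in the inputs (0.94). Hspa12a had 91.5 and 90.5 CPM in the Ythdf2 IPs, against 19.5 and 37.4 CPM in the inputs (1.68). Islr2, a membrane protein of axon guidance, had 147 and 100.0 CPM in the Ythdf2 IPs, against 87.5 and 45.8 CPM in the inputs, and was not called (0.89, adjusted p = 0.107). For all 5 both Ythdf2 IPs lay above both inputs. The summed level of the 5 was 895 and 818 CPM in the Ythdf2 IPs and 339 and 316 CPM in the inputs. In the Ythdf1 IPs it was 1044 and 1033 CPM, so both antibodies lay above input. None of the 4 calls held without Ythdf2 IP replicate 1 or replicate 2, and 2 held without Ythdf1 IP replicate 1 or replicate 2.

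Of 44 genes for dendrite growth and branching, a list that holds 3 of those 5, 10 were enriched and 3 depleted (median 0.47). Wasf3, an actin regulator of the WAVE complex, stood out, with 672 and 757 CPM in the Ythdf2 IPs, 109 and 110.0 CPM in the Ythdf1 IPs, and 208 and 220.4 CPM in the inputs. Its log2 fold change was 1.74 over input, and it was the 1 gene of the list still enriched without either Ythdf2 IP. Fat3 (1.39), Nedd4 (1.30), Celsr3 (1.10) and Trio (1.09) were enriched, and Cfl1 (-1.83), Klhl20 (-1.60) and Cdc42 (-0.80, but 0.72 under library totals) depleted. Cfl1 encodes cofilin, which severs actin filaments, and Cdc42 a GTPase that directs actin assembly. Without Ythdf1 IP replicate 1 or 2 the list had 3 and 4 enriched and 1 and 1 depleted genes, and without input replicate 1 or 2 it had 19 and 21 enriched and 5 and 6 depleted. There were 1 and 0 depleted without Ythdf2 IP replicate 1 or 2. Of 32 presynaptic genes 5 were enriched and none depleted (median 0.11, with 0.25 and 0.03 without input replicate 1 or 2). Among them were Bsn (1.54), Ppfia4 (1.53), Ppfia3 (1.48) and Syt11 (1.24), of which none was called without either Ythdf2 IP. There were 3 and 4 enriched presynaptic genes without Ythdf1 IP replicate 1 or 2, and 9 and 10 without input replicate 1 or 2.

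Regulators of transcription and of ubiquitin gave unequal shares. Of 324 Zfp zinc finger genes 26 were enriched and 11 depleted (median 0.09, but -0.10 without input replicate 1 and 0.63 without input replicate 2), against 7.49% and 11.9% of all genes tested. Of 39 BTB zinc finger genes 9 were enriched and 1 depleted (median 0.59, and 0.38 without Ythdf2 IP replicate 1), among them Zbtb14, with 170 and 179 CPM in the Ythdf2 IPs, against 55.3 and 55.8 CPM in the inputs (1.65). Of 46 Usp deubiquitinases 7 were enriched and none depleted (median 0.60, and 0.97 without input replicate 2), led by Usp31, with 179 and 169 CPM in the Ythdf2 IPs, against 25.9 and 37.8 CPM in the inputs (2.45). Zbtb14 and Usp31 were the ones of their lists called without either Ythdf2 IP. Of 147 ubiquitin ligases of the Trim, Rnf and Fbxo families 15 were enriched and 2 depleted, and of 50 chromatin regulators 6 and 2. Without Ythdf2 IP replicate 1 or 2 these counts of enriched genes were 2 and 4 for Zfp genes, 1 and 1 for BTB genes, 1 and 1 for Usp genes, 1 and 2 for the ligases and 0 and 0 for chromatin regulators. Without Ythdf1 IP replicate 1 or 2 they were 11 and 11, 6 and 6, 1 and 1, 6 and 7, and 1 and 1 in the same order, and without input replicate 1 or 2 they were 53 and 90, 15 and 17, 15 and 23, 41 and 39, and 15 and 20.

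Several lists of mRNAs for ribosomes, respiration, histones and splicing had most of their members depleted. Of 81 cytosolic ribosomal protein genes 76 were depleted and none enriched, with a median of -2.60, and the median stayed below 0 under library totals at -1.08. Their summed level was 8101 and 9829 CPM in the Ythdf2 IPs, 8830.4 and 8186 CPM in the Ythdf1 IPs, and 57641 and 42981 CPM in the inputs. Rps23, a small-subunit protein, had 53.4 and 57.2 CPM in the Ythdf2 IPs, against 596 and 588 CPM in the inputs (log2 fold change -3.42 ± 0.261, edgeR adjusted p = 0.000145). Rpl35, of the large subunit, had 29.1 and 41.7 CPM in the Ythdf2 IPs, against 2055 and 1071 CPM in the inputs (-5.46). The median transcript of the list has 878 bases. The count was 53 and 56 without Ythdf2 IP replicate 1 or 2. Many ribosomal protein genes have processed pseudogenes, and 173 of 488 processed pseudogenes tested were also depleted, with a median of -1.66.

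Nuclear genes of oxidative phosphorylation followed, with 60 of 77 depleted and 2 enriched (median -2.09; -0.56 under library totals). Ndufb3, a complex I subunit, had 8.99 and 11.9 CPM in the Ythdf2 IPs, against 173 and 195 CPM in the inputs (-4.13), and Ndufa3 fell by 3.91 on the log2 scale. The enriched ones were Uqcrfs1, the Rieske subunit of complex III (1.57), and Sdha, of complex II (0.98). Depleted members numbered 29 and 34 without Ythdf2 IP replicate 1 or 2, and none was then enriched. Of 78 mitochondrial ribosomal protein genes 35 were depleted (median -1.19, but 0.34 under library totals), of 44 proteasome subunits 18 (median -0.87, but 0.65 under library totals) and of 64 translation factors 12 (median -0.52, but 0.99 under library totals and -0.30 without input replicate 1). No member of these 3 lists was enriched. Without Ythdf2 IP replicate 1 or 2 the depleted counts were 7 and 6, 6 and 2, and 3 and 4 in that order. The translation factor count was 8 without either Ythdf1 IP and 21 and 24 without input replicate 1 or 2. The proteasome and mitochondrial ribosomal counts without 1 of the Ythdf1 IPs were 12 and 12, and 24 and 23, and the mitochondrial ribosomal count was 53 without input replicate 2.

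All 13 mRNAs encoded in the mitochondrial genome were depleted (median -5.36; -3.87 under library totals). Their summed level was 5246 and 5312 CPM in the Ythdf2 IPs, 1286 and 1393 CPM in the Ythdf1 IPs, and 105094 and 182691 CPM in the inputs. These transcripts are made and kept inside mitochondria, where Ythdf2 is not known to act. mt-Nd2, a complex I subunit, had 175 and 202 CPM in the Ythdf2 IPs, against 10359 and 12509.9 CPM in the inputs (-5.92 ± 0.339, edgeR adjusted p = 7.87e-05). mt-Co1, of complex IV, was depleted less, at 2481 and 2483 CPM in the Ythdf2 IPs, against 22958 and 41124 CPM in the inputs (-3.69). The Ythdf1 IPs held less of both, with 47.5 and 51.5 CPM for mt-Nd2, and 398 and 465 CPM for mt-Co1.

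Of 60 replication histones, whose mRNAs end in a stem-loop and not in a poly(A) tail, 50 were depleted (median -2.05; -0.54 under library totals). The summed histone level was 6645 and 9453 CPM in the Ythdf2 IPs, against 41563 and 29946 CPM in the inputs. Hist1h3f had 58.5 and 115 CPM in the Ythdf2 IPs, against 1548 and 1059 CPM in the inputs (-3.91). The count was 22 without Ythdf2 IP replicate 1 and 41 without replicate 2, and near-identical histone copies make single genes uncertain. Of 25 Sm and LSm genes, which form the core of spliceosomal RNPs, 16 were depleted (median -1.81; -0.29 under library totals), with 9 and 8 left without Ythdf2 IP replicate 1 or 2. Snrpf had 22.7 and 25.5 CPM in the Ythdf2 IPs, against 547 and 415 CPM in the inputs (-4.31).

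Single mRNAs outside these lists fell as well. Most of those named here are short, but the annotated transcript of Olfr77 has 9649 bases. Serf1, a short mRNA next to the Smn1 locus, had 1.32 and 2.78 CPM in the Ythdf2 IPs, against 239 and 157 CPM in the inputs (-6.58 ± 0.441, edgeR adjusted p = 8.57e-05). Tmsb10 and Tmsb4x encode thymosins, small proteins that bind actin monomers. Tmsb10 had 113 and 109 CPM in the Ythdf2 IPs, against 7917 and 3443 CPM in the inputs (-5.68), and Tmsb4x had 19.8 and 24.2 CPM in the Ythdf2 IPs, against 481 and 390.5 CPM in the inputs (-4.31). Gapdh, of glycolysis, had 202 and 226 CPM in the Ythdf2 IPs, against 3113 and 1204 CPM in the inputs (-3.33). In 62 depleted genes, 28 of them protein-coding, both Ythdf2 IPs were at 0. These passed the count filter only through the inputs or the Ythdf1 IPs, so their direction was fixed in advance. Olfr77, an olfactory receptor, was at least 32.4-fold lower, Wdr74, a ribosome assembly gene, at least 14.3-fold and Fabp3, a fatty acid binding protein gene, at least 12.9-fold, against a floor of 3 counts per library. Of 40 genes for the neuronal cytoskeleton and axon growth 13 were depleted and 3 enriched (median -0.14, but 1.39 under library totals, -0.02 without Ythdf2 IP replicate 2 and -0.35 without input replicate 2), and the enriched ones were the long spectrins Sptan1 (1.33) and Sptbn1 (1.31) and the neurofilament gene Ina (1.16). Without Ythdf2 IP replicate 1 or 2 the depleted cytoskeleton genes numbered 6 and 3 and none was enriched. Without Ythdf1 IP replicate 1 or 2 there were 1 and 2 enriched, and without input replicate 1 or 2 there were 10 and 12.

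Small non-coding RNAs moved in both directions. Of 198 snRNAs, snoRNAs and scaRNAs 6 were enriched and 73 depleted, and the rest were not called (median -1.74, and -0.23 under library totals). The enriched ones were 3 of 100 snoRNAs and 3 of 14 scaRNAs, and none of 84 snRNAs. Depleted were 30 snoRNAs, 3 scaRNAs and 40 snRNAs. Scarna2, a guide RNA of Cajal bodies (chr3:108554338-108554751, minus strand), had 4709.6 and 7249 CPM in the Ythdf2 IPs, 942 and 1009 CPM in the Ythdf1 IPs, and 533 and 456 CPM in the inputs. Its log2 fold change over input was 3.59 ± 0.330 (edgeR adjusted p = 0.000249). Gm22009, annotated as another scaRNA (chr3:69085105-69085447, minus strand) and chosen after its values were seen, had 27136 and 39967 CPM in the Ythdf2 IPs, 804 and 777 CPM in the Ythdf1 IPs, and 11959 and 6726 CPM in the inputs (1.84 over input). The 7SK RNA gene Rn7sk, also chosen after its values were seen, had 10106 and 16858 CPM in the Ythdf2 IPs, against 452152 and 392778 CPM in the inputs (-4.97). These RNAs are known to reside in the nucleus. Of the list, 3 members were enriched without Ythdf2 IP replicate 2, and the calls of Scarna2 held without any 1 library.

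Markers of the retina were present in both IPs and inputs, and the label of the tissue was not contradicted. All 11 progenitor markers were tested, with a summed level of 4717 and 4529.9 CPM in the Ythdf2 IPs, against 7431 and 4976 CPM in the inputs. None was enriched and 3 were depleted, Six3 (-2.17), Hes1 and Sox2 (-1.41, but 0.11 under library totals), with a median of -0.39, which was 1.13 under library totals, and -0.13 and -0.61 without input replicate 1 or 2. Of 14 ganglion cell markers 4 were depleted and none enriched (median -0.48, but 1.05 under library totals and -0.30 without Ythdf2 IP replicate 2): Sncg (-3.43), which encodes gamma-synuclein, Nefm (-2.29), Gap43 (-2.28) and Stmn2 (-1.58). Their summed level was 498 and 439 CPM in the Ythdf2 IPs, against 868 and 819.9 CPM in the inputs. Of 11 amacrine and horizontal markers 2 were depleted, and of 9 photoreceptor markers 1, Crx (0.90), was enriched. Over all genes tested 7.49% were enriched and 11.9% depleted, so the amacrine and photoreceptor counts are near those shares. The libraries pool all cells, so fewer cells of a type and less RNA per cell cannot be told apart, and the levels of a marker in IP and input do not count cells. Without Ythdf2 IP replicate 1 or 2 the depleted counts were 1 and 0 for progenitor markers, 2 and 1 for ganglion cell markers and 0 and 0 for amacrine and horizontal markers, and Crx was not called. Without input replicate 2 there were 9 depleted progenitor and 6 ganglion cell markers, and without input replicate 1 there were 6 depleted amacrine and horizontal markers.

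Other tissues left few reads. Erythroid markers summed to 0 and 2.78 CPM in the Ythdf2 IPs, against 5.57 and 5.04 CPM in the inputs. Lens markers summed to 2.12 and 0 CPM in the Ythdf2 IPs, against 3.78 and 3.10 CPM in the inputs, and pigment epithelium markers to 3.97 and 1.94 CPM in the Ythdf2 IPs, against 4.97 and 0.776 CPM in the inputs. Cryaa, Pmel, Tyr, Rpe65, Emx1 and Neurod6 had no read in any of the 4 libraries. Microglial markers summed to 23.5 and 32.5 CPM in the Ythdf2 IPs, against 23.3 and 13.4 CPM in the inputs. Of 9 endothelial markers 3 were tested, and their summed level of 437 and 448 CPM in the Ythdf2 IPs, against 221 and 214 CPM in the inputs, was almost all Kdr, a VEGF receptor (1.10), whose call was lost without either Ythdf2 IP or either Ythdf1 IP. Pecam1 had no read in either Ythdf2 IP and 7 in each input, and Tie1, Emcn and Esam had none in all 4. The part of these cells in the results was not tested.

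Transcript length went along with enrichment over the whole transcriptome. Among 12396 protein-coding genes matched to a GENCODE M21 transcript (the one with the longest coding sequence, which need not be the one expressed), the median length was 4602 bases for enriched, 1351 for depleted and 3189 for uncalled genes. The coding sequence had medians of 2259, 612 and 1497 bases and the 3′ UTR of 1650, 380 and 1084 bases in the same order. From the shortest to the longest quintile of transcripts 35, 88, 187, 296 and 439 genes were enriched, and 845, 242, 118, 72 and 34 depleted. The median log2 fold change by quintile was -1.01, -0.20, 0.12, 0.34 and 0.54. The shortest quintile, of up to 1773 bases, took 12.7% and 13.8% of protein-coding counts in the Ythdf2 IPs, 12.1% and 11.9% in the Ythdf1 IPs, against 42.5% and 43.6% in the inputs. The longest quintile took 30.6% and 29.6% in the Ythdf2 IPs, 30.7% and 31.8% in the Ythdf1 IPs, against 13.1% and 16.7% in the inputs. Both antibodies thus differed from input in the same direction, and without a control IgG the part of Ythdf2 in the length pattern cannot be told apart from that of the procedure.

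The Spearman correlation of length with the log2 fold change was 0.470 across these 12396 genes, which are not independent replicates. By pairs of libraries it was 0.555 and 0.538 for Ythdf2 IP replicates 1 and 2 over input replicate 1, and 0.337 and 0.310 over input replicate 2. The choice of input thus moved the size and not the sign. With GC content the correlation was 0.072, and its sign depended on the input, at -0.194 and -0.198 over input replicate 1 and 0.281 and 0.282 over input replicate 2.

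**Figure D4:**
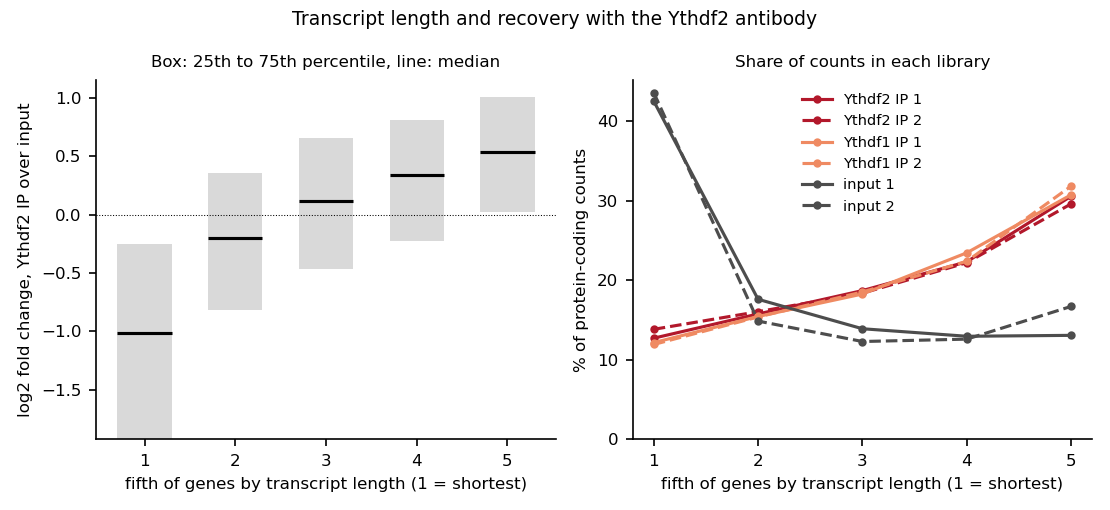
Genes by quintiles of transcript length, shortest to longest (horizontal axis). On the left is the log2 fold change, Ythdf2 IP over input, as quartile box and median. On the right is the percentage of protein-coding counts in each library. The median log2 fold change goes from -1.01 in the shortest quintile to 0.54 in the longest.

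The GGACT motif was held by 98.0% of enriched, 74.98% of depleted and 93.8% of uncalled transcripts, but longer transcripts hold it more often. Per kilobase the medians were 1.10, 0.943 and 1.05 occurrences. Within the longest quintile the median density was 1.11 per kilobase in 439 enriched, 0.903 in 34 depleted and 0.962 in 2006 uncalled transcripts. Within the shortest quintile it was 1.19 in 35 enriched, 0.980 in 845 depleted and 1.23 in 1600 uncalled transcripts. The enriched transcripts were thus above the uncalled ones in the longest quintile and below them in the shortest, the latter on 35 genes. In the quintiles between, from shorter to longer, the medians were 1.05, 1.10 and 1.10 in enriched and 1.07, 1.09 and 1.05 in uncalled transcripts. In depleted transcripts they were 0.902, 0.941 and 0.899, so the depleted ones were below the uncalled ones in every quintile. These densities describe letters of the annotated transcript, and no measure of m6A is among these libraries.

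Set against the Ythdf1 IP, 932 genes (6.5%) were higher and 381 (2.66%) lower in the Ythdf2 IP. This contrast shares the Ythdf2 libraries with the one over input and needs both IPs of each antibody. Without Ythdf1 IP replicate 1 or 2, 0 and 3 genes were higher, and 1 and 1 lower. Without Ythdf2 IP replicate 1 or 2, 22 and 113 were higher, and 1 and 21 lower. Without input replicate 1 or 2, 2505 and 2462 were higher, and 2174 and 2211 lower. The 0 without Ythdf1 IP replicate 1 is edgeR's count at the adjusted threshold, and 1438 genes were then higher at an unadjusted p under 0.05. The genes below were called in the full fit, and all but Lars2 lost their call both without Ythdf1 IP replicate 1 and without replicate 2. Lars2 kept its call there and lost it without either Ythdf2 IP or either input.

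Selenot, an endoplasmic reticulum selenoprotein (chr3), had 334 and 297 CPM in the Ythdf2 IPs, 11.2 and 13.7 CPM in the Ythdf1 IPs, and 31.4 and 123 CPM in the inputs. Its log2 difference between the antibodies was 4.66 (edgeR adjusted p = 0.00421). Pkib, an inhibitor of protein kinase A, had 54.8 and 52.8 CPM in the Ythdf2 IPs, against 2.76 and 2.38 CPM in the Ythdf1 IPs (4.37). Dynlt3, a dynein light chain, had 25.7 and 25.5 CPM in the Ythdf2 IPs, against 1.38 and 1.10 CPM in the Ythdf1 IPs (4.33), and 14.9 and 39.7 CPM in the inputs. Acyp2, an acylphosphatase, had 11.9 and 9.44 CPM in the Ythdf2 IPs and 0 in both Ythdf1 IPs, and was at least 21.2-fold higher against a floor of 3 counts per library. Gsk3b (2.90), Wasf3 (2.71), E2f1 (2.41) and Strn (2.11) were among the genes enriched over input that were also higher than in the Ythdf1 IP. Elavl4, a neuronal RNA-binding protein gene, was at 21.4 and 28.0 CPM in the Ythdf2 IPs, against 2.61 and 5.48 CPM in the Ythdf1 IPs (2.62).

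On the other side, Rab43, a Golgi GTPase gene (chr6), had 2.38 and 1.67 CPM in the Ythdf2 IPs, 28.2 and 27.6 CPM in the Ythdf1 IPs, and 1.19 and 2.91 CPM in the inputs, so the Ythdf2 IPs lay in the input range (log2 difference -3.77, edgeR adjusted p = 0.00565). Pirt, a membrane regulator of ion channels, had 1.32 and 1.94 CPM in the Ythdf2 IPs, against 16.6 and 19.6 CPM in the Ythdf1 IPs (-3.45). Btbd6, a BTB domain gene, had 3.44 and 3.05 CPM in the Ythdf2 IPs, against 20.1 and 35.1 CPM in the Ythdf1 IPs (-3.07). Notch2 was enriched over input and 0.97 lower on the log2 scale than in the Ythdf1 IP. Lars2, a mitochondrial leucyl-tRNA synthetase gene, had 31.7 and 30.8 CPM in the Ythdf2 IPs, against 10611 and 757 CPM in the Ythdf1 IPs, and these 2 differ too much for a fold to be read.

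The antibodies differed along GC content. The last 60 coding bases are shown for 3 transcripts higher with Ythdf2 and then 2 higher with Ythdf1, to let the composition be seen, with the stop codon in capitals.
Selenot: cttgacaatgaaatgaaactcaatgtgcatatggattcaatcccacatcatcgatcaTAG
Pkib: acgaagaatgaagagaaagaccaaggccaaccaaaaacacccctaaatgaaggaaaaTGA
Dynlt3: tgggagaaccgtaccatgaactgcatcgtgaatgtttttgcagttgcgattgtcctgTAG
Rab43: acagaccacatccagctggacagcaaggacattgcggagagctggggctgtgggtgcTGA
Btbd6: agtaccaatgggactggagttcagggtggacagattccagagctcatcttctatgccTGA
They were read from GENCODE M21 on GRCm38, at chr3:58590232-58590291 (plus), chr10:57736298-57736357 (plus), chrX:9655987-9656046 (minus), chr6:87792590-87792649 (minus) and chr12:112978477-112978536 (plus) in that order. GC makes up 36.7%, 40% and 46.7% of the windows of Selenot, Pkib and Dynlt3, and 60% and 50% of those of Rab43 and Btbd6. Over the whole transcripts GC content is 39.3%, 42.6% and 38.9% in the first set and 56.4% and 57.3% in the second. The rest of the largest differences between the antibodies did not separate by whole-transcript GC. Higher with Ythdf2 were also Acyp2 (42.4%), Fcer2a (51.7%) and Pet117 (56.7%). Higher with Ythdf1 were also Pirt (48.8%), Zfp82 (48.9%), Lars2 (51.2%) and Wdr74 (55.0%).

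Across all 12396 transcripts the Spearman correlation of GC content with the log2 difference of Ythdf2 over Ythdf1 IP was -0.442, and it ran from -0.442 to -0.371 over the 4 pairs of libraries. From the lowest to the highest quintile of GC 402, 230, 114, 62 and 31 genes were higher with Ythdf2, and 8, 34, 58, 97 and 131 lower. The median log2 difference by quintile was 0.77, 0.22, -0.12, -0.31 and -0.41. The lowest quintile, of up to 44.8% GC, took 16.1% and 16.0% of protein-coding counts in the Ythdf2 IPs, 7.82% and 8.74% in the Ythdf1 IPs, against 21.99% and 38.1% in the inputs. The correlation with whole transcript length was 0.004, but those with its parts had opposite signs. They were -0.136 with coding length and 0.121 with 3′ UTR length. From the shortest to the longest quintile of coding sequence 368, 227, 135, 82 and 27 genes were higher with Ythdf2, and 78, 76, 58, 68 and 48 lower. The inputs alone also differ from each other along GC, by as much as the antibodies or more, and whether the antibody or the library step goes with the GC pattern was not tested.

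**Figure D5:**
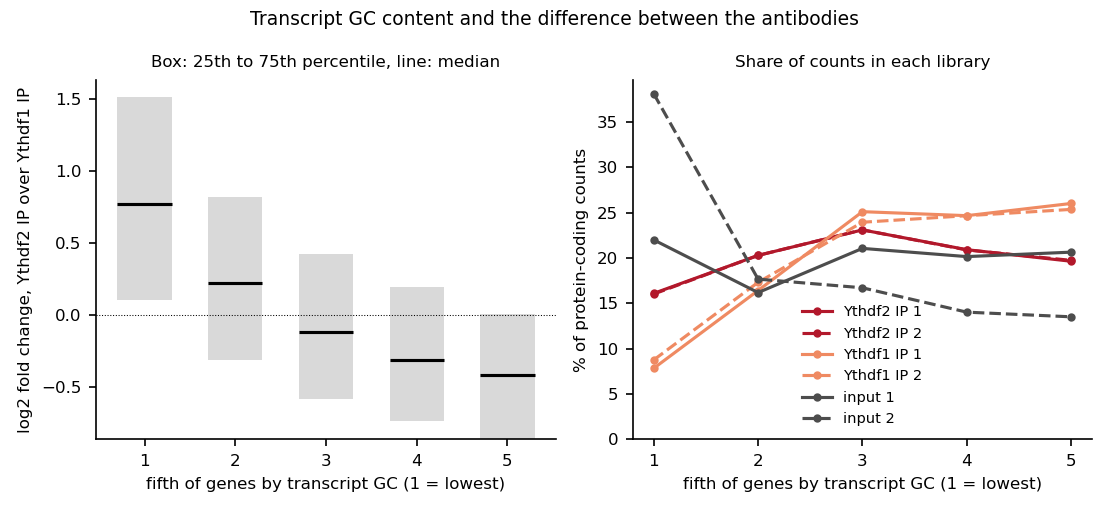
Genes by quintiles of transcript GC content, lowest to highest (horizontal axis). On the left is the log2 difference, Ythdf2 IP over Ythdf1 IP, as quartile box and median. On the right is the percentage of protein-coding counts in each library. The median log2 difference goes from 0.77 in the lowest quintile to -0.41 in the highest.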

How the data were processed

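RNA immunoprecipitation sequencing was measured in 6 retina libraries, grouped by their labels into Ythdf2 IP, Ythdf1 IP and input (2 each). The authors deposited raw read counts per gene, and a table of FPKM that they computed for the same libraries. The submitters' processing notes name STAR 2.5, HTSeq and GRCm38. The annotation release, the gene lengths behind the FPKM and the strand setting of the counting are not stated in the sources used here, so reads of overlapping and antisense genes cannot be told apart. Of 52550 genes in the table, 52403 were matched to GENCODE M21, which gave symbols, classes, coordinates and transcript sequences.

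Library totals were 19530226 and 24903212 counts in the Ythdf2 IPs, 40515980 and 34033506 in the Ythdf1 IPs, against 39499994 and 36236531 in the inputs. The 81 rRNA genes with counts in retina were left out before scaling. Genes with at least 10 counts in at least 2 libraries were kept, which left 14335. TMM factors ran from 0.473 to 1.46. The 6 libraries were fitted together with edgeR 4.0.16 (quasi-likelihood test, two-sided, 3 residual degrees of freedom, R 4.3.3), and p was adjusted after Benjamini and Hochberg over the 14335 genes, with a threshold of 0.05. The fit was first tested on simulated data. A count of 0 was bounded by a floor of 3 counts per library, a mean of 0.813 CPM in the Ythdf2 IPs, 0.504 in the Ythdf1 IPs and 0.589 in the inputs, which covers counting error only because the reads carry no molecular identifiers. Alternatives were DESeq2 1.42.0, other scalings and filters, other sets of libraries, each library left out, a replicate term and limma 3.58.1 on log2(FPKM + 1).

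The members, the gene lists and the tests were chosen with earlier results of these data known. Named genes were protein-coding, called, changed at least 2-fold, with a mean of at least 5 CPM and both IPs on the same side of both inputs. Of these the 12 largest rises and falls and the 6 most abundant of each were eligible, with, in every list, the 2 higher and 2 lower genes of smallest p, the 3 Ythdf genes, the 5 genes linked to Ythdf2 in retina, and the 6 largest differences between the antibodies in each direction. Other list members, most genes at 0 in a group and Elavl4 were named after their values were seen.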

Additional observations from a re-analysis of the deposited data

How the results depend on the processing

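Of the scalings, DESeq2 size factors changed little (1099 enriched and 1674 depleted) and library totals the most, with 7966 enriched and 532 depleted genes and 13 of the 1707 depleted genes called the other way. Under library totals 35 lists had more enriched than depleted members and 6 the reverse, against 23 and 16 under TMM, and the log2 fold changes of Hnrnpc (0.41), Patl1 (0.26), Hes1 (0.00051), Gsk3a (0.33), Dvl3 (0.39), Cdc42 (0.72) and Sox2 (0.11) turned positive. Which scaling is right cannot be told from these data. A fit of only the 4 libraries compared gave 455 enriched genes. A fit of all 12 libraries, whose spread then includes the cortex, gave 104 enriched and 399 depleted genes, and 11 lists with more enriched members. The DESeq2 Wald test gave 1369 enriched and 1844 depleted genes, no count filter 1383 and 1638, rRNA genes kept 1400 and 1539, limma on FPKM 1433 and 1807, and protein-coding genes only, an alternative chosen after seeing the data, 1026 and 1281. Leaving out 1 library gave 124 to 2718 enriched and 528 to 2663 depleted genes, and 14 to 24 lists with more enriched members. A group left with 1 library was assumed to vary like the others. Without input replicate 1 the log2 fold change of Ythdf2 was -0.25 and that of Ythdf3 -0.43, and without input replicate 2 they were 1.07 and 1.56.

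Against the Ythdf1 IP, 2486 genes were higher and 2347 lower in the fit of the 4 IP libraries. With all 12 libraries edgeR called 0 and 0, with 1264 and 756 at an unadjusted p under 0.05. The number lower was 756 by the DESeq2 Wald test (1219 higher), 603 with no count filter and 675 by limma on FPKM. Leaving out 1 library gave 0 to 2505 higher genes, where the 0 had 1438 at an unadjusted p under 0.05, and 1 to 2211 lower genes. The Spearman correlation of length with the log2 fold change over input ran from 0.326 to 0.553 with 1 library left out, and that of GC content from -0.20 to 0.294, both set by the input left out. The cause of these changes was not tested.

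Same-numbered libraries hardly deviated together (correlations across genes of 0.0959 for Ythdf1 IP with input, -0.033 for Ythdf2 IP with input and -0.0156 for the 2 antibodies). They were treated as unpaired. With 2 replicates per group and no statement in the labels, a shared tissue pool cannot be told from these values. A replicate block gave 1093 enriched and 1601 depleted genes, of which 967 and 1558 were among those called without it, and 993 higher and 365 lower genes against the Ythdf1 IP. Of 144 named results, 6 lost their call under the block (Tmem102, Edc4, Tsc1, Cdc42, Ppfia4 and Notch2 against the Ythdf1 IP). The Ythdf2 IPs were the shallowest libraries outside rRNA, so calls on genes of few counts are the least certain.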
